A study of Mus musculus with 12 samples.

Results

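The melanocyte pigment genes are 10 genes chosen by name: Tyr, Tyrp1, Dct, Pmel, Mlana, Slc45a2, Oca2, Mc1r, Mitf and Sox10. All 10 were found among the 49492 genes of the deposited count table, and all 10 passed the filter on low counts in each comparison. They were measured in skin of UV-exposed mice (labelled UV) and of mice labelled Control, with 3 samples per condition. Each sample gave an IP library, made from RNA bound by an antibody against m6A (N6-methyladenosine), and an input library of the unselected RNA, so that there were 12 libraries in all. The sources used here do not give the strain, age and sex of the mice, the kind, dose and timing of UV, or whether the samples are separate animals. The p-values therefore set each difference against the spread among these samples, which may not be a spread between separate animals.

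Melanin is made in melanocytes, inside organelles called melanosomes, and in mouse skin most pigment-producing melanocytes sit in the hair follicle during hair growth. Tyrosinase catalyses the first and rate-limiting step, and TYRP1 and DCT act on later intermediates of black-brown pigment. PMEL forms the fibrils on which melanin is laid down, MLANA takes part in the maturation of PMEL, and SLC45A2 and OCA2 are membrane transporters that adjust the melanosome's interior. MC1R is the receptor for melanocyte-stimulating hormone, and MITF is the transcription factor that switches on much of this set, with SOX10 acting on the Mitf gene. m6A is the commonest internal modification of mRNA, and a ratio of IP to input above that of the average transcript is read as relative enrichment.

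MITF binds a sequence known as the M-box, TCATGTG, so the stretches of promoter that hold it are shown first. RefSeq promoter windows (GRCm38.p6, 250 bases before to 50 after a transcript start) were matched for 6 of the 10 genes, as 8 windows. TCATGTG or its other-strand form CACATGA, which both contain the shorter E-box CATGTG or CACATG, was found in 4 of the 8 windows, those of Tyr, Tyrp1, Mc1r and Dct, against 3.77% of the 32851 windows in the table. The 3 Mitf windows held neither the M-box nor this E-box. The Oca2 window held the E-box alone, on the opposite strand 186 bases before the start, and 14.2% of all windows hold that shorter motif. The stretches of 30 bases around 4 of the 5 matches are given here for comparison, 5′ to 3′ in the direction of the gene, with the M-box letters in capitals.
Tyr, chr7:87493516-87493545, minus strand: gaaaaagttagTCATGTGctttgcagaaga
Tyrp1, chr4:80834155-80834184, plus strand: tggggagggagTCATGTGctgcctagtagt
Mc1r, chr8:123407019-123407048, plus strand: gcacatgcccaTCATGTGgccaccctcagg
Dct, chr14:118052379-118052408, minus strand: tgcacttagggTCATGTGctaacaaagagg
The Dct window held a second match, on the opposite strand, 232 bases before the transcript start. The match in Tyr began 22 bases before the start, that in Tyrp1 47, that in Mc1r 52 and the nearer one in Dct 151. The Tyrp1 match lies inside the first exon of the deposited annotation, which begins upstream of this RefSeq start. A match describes the letters of the window and is not a measurement of binding.

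In the input libraries, which measure transcript level, none of the 10 genes was called between UV and Control skin by edgeR's quasi-likelihood test (adjusted p below 0.05 over 24099 genes), where 5.83% of all genes were called. The log2 fold change of UV over Control was below 0 for 9 of the 10 genes, with a median of −0.32 against −0.02 over all genes tested. These 9 genes also varied together from sample to sample, as described below, so they are not 9 separate observations. In bulk skin, a change in the number of melanocytes cannot be told apart from a change in RNA per melanocyte. The levels are also relative to the RNA of all other skin cells. The libraries held between 24126662 and 92163619 reads in genes. No 2 replicates of a group were the same library: a chi-square test of their counts gave 48.0 to 167 for each degree of freedom.

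Among the pigment enzymes, Dct had 95.1, 133.3 and 132.2 CPM (reads brought to a common library size by TMM) in UV samples 1 to 3, against 117.9, 162.6 and 111.5 in Control samples 1 to 3. The groups overlapped, and the log2 change was −0.13 (SE 0.18, 95% interval −0.53 to 0.28, adjusted p = 0.696). Tyrp1 had 16.0, 25.3 and 22.8 CPM in UV skin, against 24.8, 34.8 and 20.8 CPM in Control skin, with a log2 change of −0.33 (SE 0.22, adjusted p = 0.387). Tyr had 9.28, 13.7 and 14.4 CPM in UV skin, against 13.3, 21.5 and 11.8 CPM in Control skin, with a log2 change of −0.31 (SE 0.25, adjusted p = 0.469). For all 3 enzymes the lowest value was that of UV sample 1 and the highest that of Control sample 2.

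Oca2 and Slc45a2, the transporter genes, had the largest differences of the 10. Oca2 had 2.40, 4.74 and 5.01 CPM in UV skin, against 6.34, 8.51 and 5.45 CPM in Control skin. It was the one gene of the 10 with every UV value below every Control value, where 15% of all genes tested had that order. Its log2 change was −0.72 (SE 0.28, 95% interval −1.35 to −0.09, adjusted p = 0.153 by edgeR). Slc45a2 had 1.23, 1.87 and 1.32 CPM in UV skin, against 2.28, 3.06 and 1.75 CPM in Control skin, with a log2 change of −0.66 (SE 0.26, 95% interval −1.26 to −0.07, adjusted p = 0.161). Its highest UV value lay above its lowest Control value.

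Of the melanosome structure genes, Pmel had 22.4, 24.8 and 26.5 CPM in UV skin, against 25.7, 28.6 and 26.4 CPM in Control skin, with a log2 change of −0.14 (SE 0.09, adjusted p = 0.396). Mlana had 1.97, 3.19 and 2.66 CPM in UV skin, against 3.32, 4.67 and 2.67 CPM in Control skin, with a log2 change of −0.42 (SE 0.25, adjusted p = 0.328). UV and Control values overlapped for both genes. Mc1r, the receptor, had 1.01, 1.35 and 1.41 CPM in UV skin, against 1.37, 2.10 and 1.17 CPM in Control skin, with a log2 change of −0.26 (SE 0.27, adjusted p = 0.583).

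Of the 2 transcription factors, Mitf had 19.5, 27.1 and 26.7 CPM in UV skin, against 30.4, 36.3 and 24.9 CPM in Control skin, with a log2 change of −0.32 (SE 0.17, adjusted p = 0.268). Sox10, which Schwann cells also express, had 3.95, 3.73 and 3.83 CPM in UV skin, against 4.33, 3.81 and 3.18 CPM in Control skin, with a log2 change of 0.01 (SE 0.15, 95% interval −0.33 to 0.36, adjusted p = 0.964). It was the one gene of the 10 that did not follow the others from library to library.

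**Figure D1:**
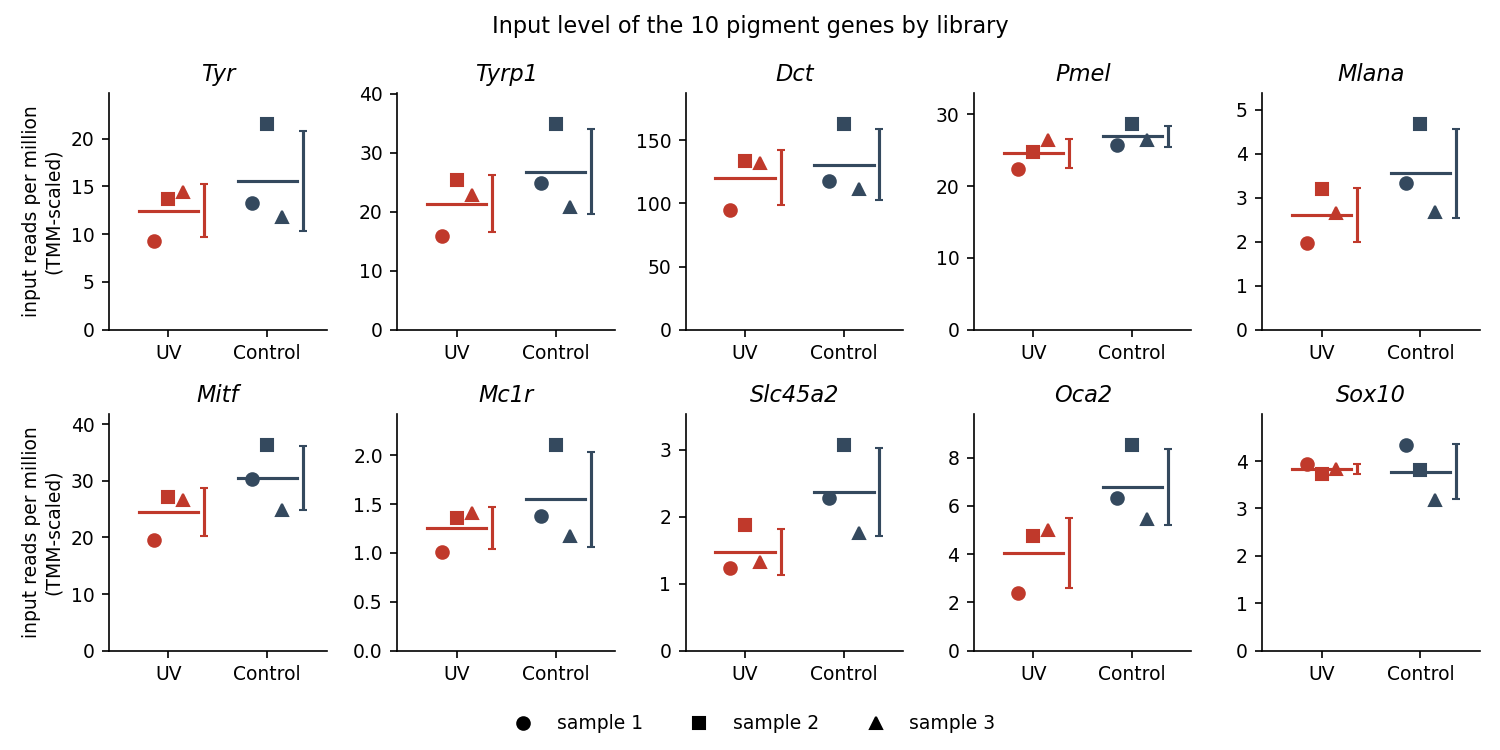
Input level of each gene in TMM-scaled CPM, with UV left of Control, a symbol per sample, a line at the mean and a bar of ± 1 SD (n = 3). UV sample 1 is lowest and Control sample 2 highest in most panels, whereas Sox10 is nearly flat.

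**Figure D2:**
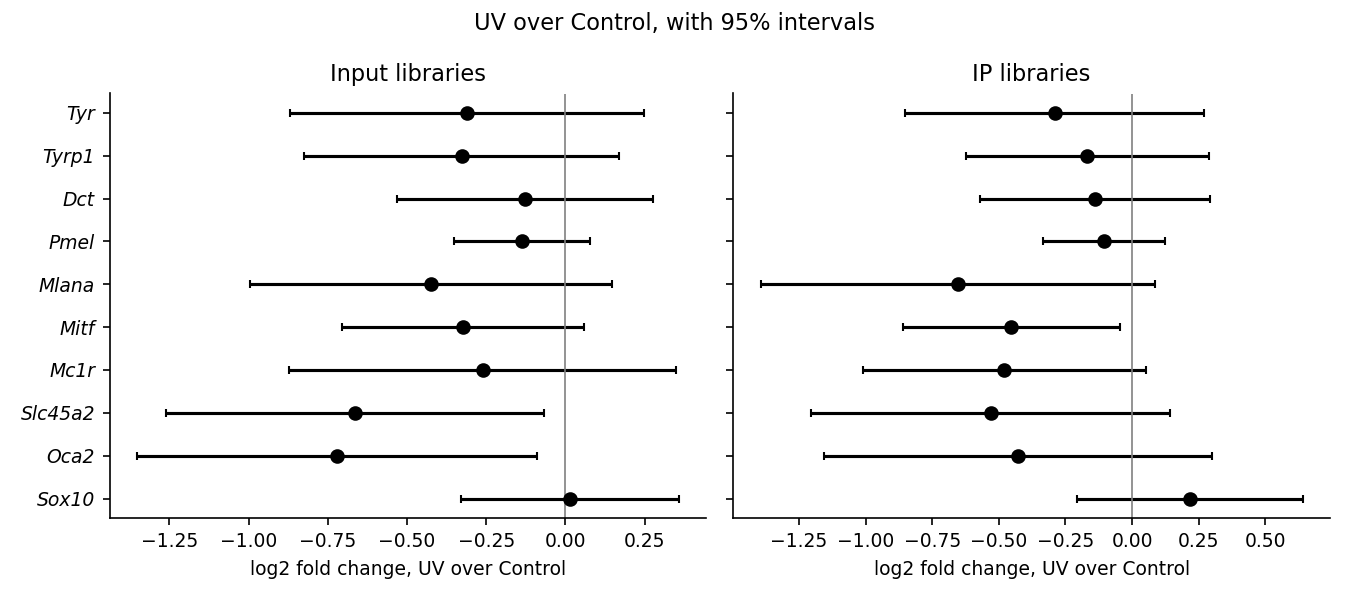
The log2 fold change of UV over Control for each gene with its 95% interval from edgeR, in input libraries on the left and IP libraries on the right. The input intervals of Slc45a2 and Oca2 and the IP interval of Mitf lie below 0, and no gene passed the adjusted threshold.

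The shared order of the samples was described by correlating log2 CPM over the 6 input libraries; the values of one library share its depth and tissue make-up. Each of the 9 genes other than Sox10 had a Pearson r of 0.83 to 0.99 with the mean of the other genes, against 0.09 for Sox10. The 5 genes outside the set with the closest profile, among 14081 compared over these 6 libraries, were Ctps, Slco4c1, Robo1, Braf and Cd99l2, with r of 0.994 to 0.999. Summed over the 10 genes, input levels were 173, 239 and 237 CPM in UV samples and 230, 306 and 210 CPM in Control samples. The summed level of 17 hair shaft and inner root sheath genes had the same lowest, second lowest and highest samples (UV sample 1, Control sample 3 and Control sample 2), at 20280, 46911 and 49147 CPM in UV samples and 52734, 68827 and 32734 CPM in Control samples. None of those 17 genes was called (median log2 change −0.56) and none was at 0 in any input library. The part of hair genes in the pigment gene differences was not tested. The summed level of 11 Schwann cell genes, Sox10 among them, ranged from 76.4 to 82.1 CPM in UV skin and from 73.4 to 78.2 CPM in Control skin, with none of the 11 called. Of the other skin cell types, 7 keratinocyte genes summed to 52872 to 77101 CPM in UV skin and 22640 to 55731 CPM in Control skin with none called, and 6 fibroblast genes summed to 5591 to 6525 CPM in UV skin and 7860 to 8822 CPM in Control skin. Of the 6 fibroblast genes 3 were called lower (Dcn, Lum and Col1a2), where 5.83% of all genes were called in either direction. The 8 macrophage genes summed to 124 to 138 CPM in UV skin and 139 to 188 CPM in Control skin, and Lyz2 and Csf1r were called lower. The 9 mast cell genes summed to 18.5 to 21.4 CPM in UV skin and 10.5 to 16.2 CPM in Control skin, with a median log2 change of 0.84. The one mast cell gene called was Mrgprb2, in the other direction, at −2.74 (adjusted p = 0.0133), and Mcpt4 (0.71, adjusted p = 0.0655), Cpa3 (0.85, adjusted p = 0.0682) and Ms4a2 (0.84, adjusted p = 0.0965) were not called.

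Per length (RPKM, the CPM divided by the deposited exon length in kilobases), the order of levels was led by Dct in both conditions, with 53.2 ± 9.61 in UV skin and 57.8 ± 12.3 in Control skin (SD, n = 3 each). Pmel followed with 11.5 ± 0.95 in UV skin and 12.6 ± 0.71 in Control skin, and Tyrp1 with 7.55 ± 1.71 in UV skin and 9.48 ± 2.56 in Control skin. The level and rank of Pmel include any reads of Dgka, a gene on the opposite strand that overlaps its last 121 bases. Those bases held 59.5% of the pooled input reads of Pmel in UV and 49.7% in Control. Mlana had 4.18 ± 0.98 RPKM in UV skin and 5.70 ± 1.63 in Control skin. Mitf had 3.94 ± 0.68 RPKM in UV skin and 4.92 ± 0.92 in Control skin, and Tyr had 1.75 ± 0.39 in UV skin and 2.18 ± 0.74 in Control skin. Sox10 ranked above Oca2 in UV skin and below it in Control skin, and Slc45a2 and Mc1r were last in both. In Control skin the ranges of Pmel and Tyrp1, Tyrp1 and Mlana, Mlana and Mitf, Tyr and Oca2, and Oca2 and Sox10 overlapped. Within each Control sample, however, every one of these pairs kept its order. Oca2 and Sox10 were nearly equal in Control sample 1, at 1.601 and 1.597 RPKM. In UV skin the ranges of Mlana and Mitf, Tyr and Sox10, and Oca2 and Slc45a2 overlapped. Oca2 stayed above Slc45a2 within each UV sample. Mlana was below Mitf in UV sample 3 (4.27 against 4.31 RPKM), and Tyr was below Sox10 in UV sample 1 (1.31 against 1.45 RPKM).

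In the IP libraries none of the 10 genes was called between UV and Control (edgeR), where 2.5% of the 22789 genes tested were called. The log2 change was again below 0 for 9 of the 10 genes, with a median of −0.36 against −0.00097 over all genes. Mitf had the smallest p, with 23.0, 32.4 and 32.2 CPM in UV IP libraries, against 39.4, 48.3 and 31.7 CPM in Control IP libraries (log2 change −0.45, SE 0.18, adjusted p = 0.211). Mlana had the largest log2 change at −0.65 (SE 0.32, adjusted p = 0.313), and Sox10 was above 0 at 0.22 (SE 0.19, adjusted p = 0.576). Among the enzymes the IP change was −0.14 for Dct, −0.17 for Tyrp1 and −0.29 for Tyr. It was −0.53 for Slc45a2 and −0.43 for Oca2, the transporters, −0.11 for Pmel and −0.48 for Mc1r, with adjusted p of 0.305 to 0.741 over these 7 genes.

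The ratio of IP to input divided the set. Dct, Pmel, Mc1r and Sox10 were higher in IP than input in both conditions, whereas the fitted values of Slc45a2 and Oca2 were below 0. For Pmel, 83.8% of pooled IP reads in UV and 79.8% in Control lay in the 121 bases that overlap Dgka. Without the reads in its peaks, a removal that lowers the ratio by construction, Pmel was called lower, at −0.56 in UV and −0.48 in Control. Dct had a log2 IP over input of 0.75, 0.88 and 0.76 in UV samples, against 0.82, 0.83 and 0.80 in Control samples. Pmel had 1.20, 1.07 and 1.05 in UV samples, against 1.02, 1.17 and 1.01 in Control samples. Every one of these values was above 0, and the conditions overlapped for both genes. By edgeR, 4 of the 10 genes were called higher in IP than input in UV skin (24.7% of all genes were) and none lower (24.3%). In Control skin the same 4 genes were called higher (24.6%) and Slc45a2 was called lower (25.8%; log2 −0.73, SE 0.28, adjusted p = 0.0461). The Slc45a2 call was lost in 5 of the 6 fits that left out one sample (adjusted p = 0.0521 to 0.214), and the Sox10 call in Control with library size only (adjusted p = 0.0815). Other settings added calls: Oca2 in Control was called lower in 6 of 12 alternatives, Tyrp1 in UV was called higher in 6 of 13 and Tyr in UV in 2 of 13. With DESeq2, for example, the adjusted p was 0.0249 for Oca2 in Control and 0.0294 for Tyrp1 in UV. The called value of Dct was 0.80 in UV (adjusted p = 0.00556) and 0.82 in Control (adjusted p = 0.00482). Pmel was at 1.10 in UV and 1.07 in Control, Mc1r at 1.04 in UV and 1.27 in Control, and Sox10 at 0.88 in UV and 0.68 in Control.

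IP and input of one sample share their RNA, and a replicate block for the sample changed these calls. With it, 7 of the 10 genes were called higher in each condition (30.4% of all genes in UV and 30% in Control), since Tyr, Tyrp1 and Mitf were added, and Slc45a2 and Oca2 were called lower in each (30.1% of all genes in UV and 31.1% in Control). Tyrp1, for example, had a blocked value of 0.60 (SE 0.06) in UV and 0.43 (SE 0.06) in Control. Mlana was not called in either condition, at 0.05 (SE 0.16) in UV and 0.22 (SE 0.15) in Control.

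The UV and Control ratios were then compared, and a difference was called for none of the 10 genes, where 0.012% of the 25022 genes tested were called (3 genes by edgeR, 1109 at an unadjusted p below 0.05, and 399 with the replicate block). The change ranged from −0.23 for Mlana to 0.29 for Oca2 on the log2 scale. It was also −0.23 for Mc1r, −0.02 for Dct, 0.02 for Tyr, 0.03 for Pmel, 0.13 for Slc45a2 and 0.20 for Sox10. Tyrp1 had every UV value above every Control value, at 0.69, 0.52 and 0.61 in UV against 0.40, 0.44 and 0.45 in Control, an order that 7.88% of genes showed. Mitf had the opposite order, at 0.24, 0.26 and 0.27 in UV against 0.38, 0.41 and 0.35 in Control, which 9.06% of genes showed. Without the block, the change was 0.16 (SE 0.33, 95% interval −0.56 to 0.87) for Tyrp1 and −0.13 (SE 0.27, 95% interval −0.71 to 0.45) for Mitf, neither of them called. The block, which takes IP and input of one sample together, gave a narrower spread. With it Tyrp1 was at 0.17 (SE 0.08, 95% interval −0.00013 to 0.34, adjusted p = 0.438 by edgeR). Mitf was at −0.12 (SE 0.08, 95% interval −0.29 to 0.04, adjusted p = 0.607), and again neither was called.

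**Figure D3:**
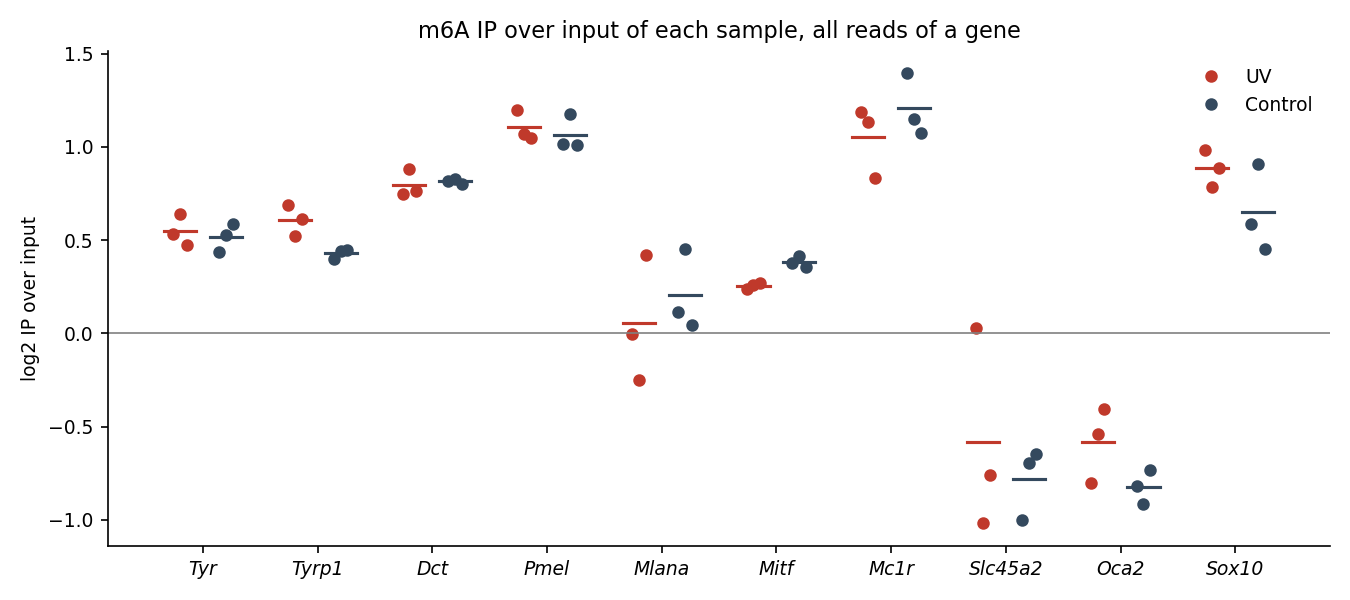
The log2 ratio of IP to input for each sample, with UV left of Control and a line at the mean of 3 samples; 0 is the TMM-scaled average gene. Pmel, Mc1r, Dct, Sox10, Tyr, Tyrp1 and Mitf lie above 0 in all samples, Mlana lies on both sides, Oca2 lies below 0 in all, and Slc45a2 lies below 0 in all but UV sample 1.

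The deposited peak table gave 22 peaks in 7 of the 10 genes, 12 called in UV and 10 in Control, and listed none for Mlana, Slc45a2 or Oca2. The Dct peak and the 121-base Pmel peak were listed with the same bounds in both conditions, and each is counted under both. Within UV samples 20 of the 22 were called higher in IP than input (93.3% of all peaks were), and within Control samples 21 (87.6%), the exceptions all being Sox10 peaks. Peaks are stretches picked for a high ratio in these same samples, so these calls are no separate evidence of enrichment. None differed by the test in that ratio across conditions, where 0% of the 41496 peaks tested were called by edgeR (3377 at an unadjusted p below 0.05, and 404 with the replicate block). In the authors' deposited table none of the 22 had an FDR below 0.05, against 45 of 42989 peaks in all. The smallest p among the 22 was that of a Mitf peak (chr6:98017853-98018152, plus strand, within one exon), with a change of −0.53 (SE 0.24, unadjusted p = 0.0448, adjusted p = 0.604).

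Most reads of Dct came from one peak at the start of the gene. The 477 bases chr14:118051770-118052246 (GRCm38, minus strand) lie in one exon that begins at the annotated gene start and were called in both conditions. They made up 21.1% of the exon length and held 81.8%, 81.8% and 81.7% of Dct's input reads in UV samples, against 81.0%, 82.1% and 81.8% in Control samples. In IP libraries the share was 95.3% ± 0.60 in UV skin and 95.7% ± 0.60 in Control skin (SD, n = 3 each). In Control input the density of reads inside the peak was 16.6 times that outside it. The input share of Dct varied little between samples and conditions. The 250 bases before the start (chr14:118052247-118052496, minus strand) are shown because they adjoin this peak and hold both M-box matches, in capitals.
Dct upstream: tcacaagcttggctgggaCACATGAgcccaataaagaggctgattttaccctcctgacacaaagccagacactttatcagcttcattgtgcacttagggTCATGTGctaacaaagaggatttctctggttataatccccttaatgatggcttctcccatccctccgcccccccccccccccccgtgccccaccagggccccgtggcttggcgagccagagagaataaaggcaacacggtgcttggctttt

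Tyr showed the same kind of concentration in a shorter stretch. Its 240-base peak (chr7:87492645-87492884, minus strand, within one exon) was 3.38% of the exon length and held 46.0%, 42.0% and 37.7% of the input reads in UV samples, against 46.1%, 36.8% and 40.2% in Control samples. In IP libraries the share was 64.2%, 69.6% and 68.1% in UV samples, against 75.3%, 73.5% and 71.1% in Control samples. Every UV IP share lay below every Control IP share, an order that 5.14% of the 10178 genes with exonic peaks showed. Pmel, Mitf and Mc1r had the opposite order in IP libraries, which 6.31% of genes showed. For Tyr, the difference between the mean UV and Control IP shares was −6.00 percentage points (exact permutation test over samples, two-sided p = 0.1, the smallest that 3 against 3 allows). That p follows from the order of the samples alone.

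For Tyrp1, Mitf and Pmel, the share of input reads inside the exonic peaks was higher in every UV sample than in every Control sample, an order that 6.65% of genes with exonic peaks showed. No gene of the 7 had the opposite order in input (15.9% of genes did). Tyrp1 had 46.6%, 46.7% and 46.1% of its input reads in peaks in UV samples, against 38.9%, 39.9% and 40.0% in Control samples. Mitf had 33.5% to 36.4% over the 3 UV samples (mean 34.6% ± 1.54), against 25.6% to 28.2% over the 3 Control samples (27.1% ± 1.31). Pmel had 68.4%, 59.7% and 61.3% in UV samples, against 49.9%, 53.3% and 56.8% in Control samples. Each difference had an exact permutation p of 0.1, the smallest possible. The order by which these genes were picked gives that p by itself, so the p adds nothing to it. Shares in peaks were examined after the values had been seen.

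**Figure D4:**
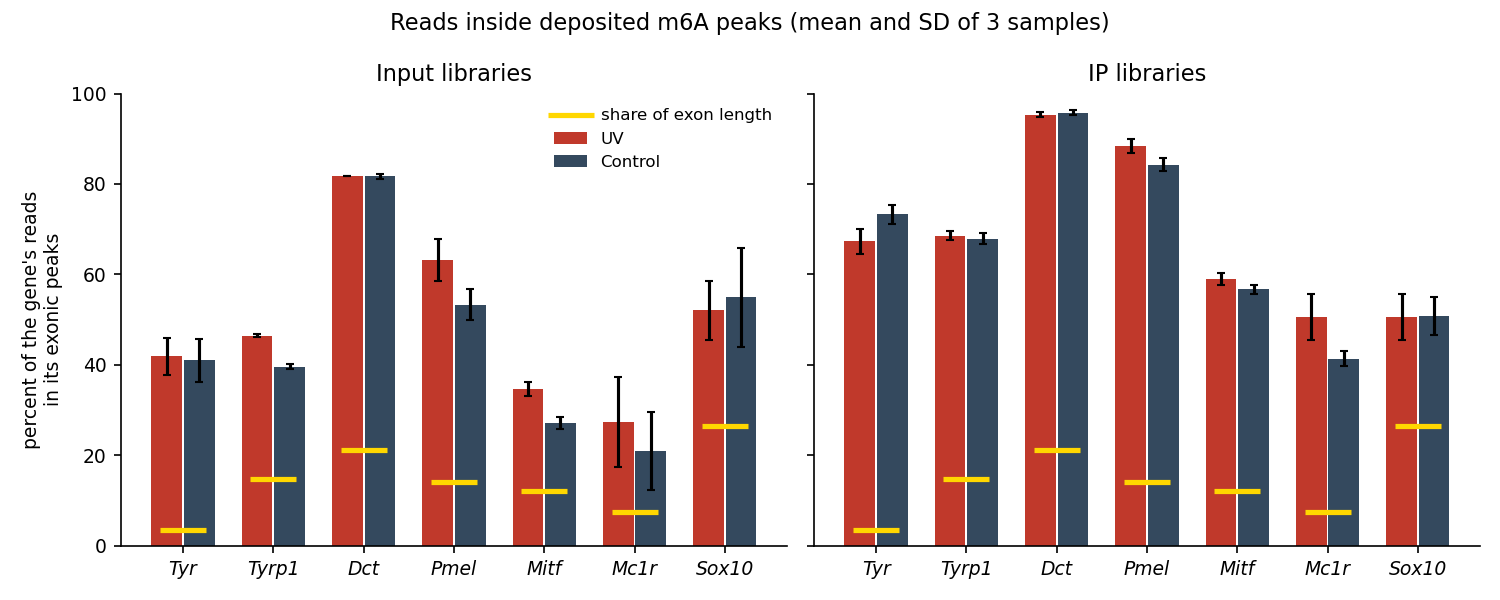
Percent of each gene's reads inside its exonic m6A peaks, as the mean and SD of 3 samples with UV left of Control, for input and IP libraries; the yellow line is the share of exon length those peaks cover. In input libraries Tyrp1, Pmel and Mitf stand higher in UV than in Control, and Dct is at about 82% in both.

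Reads of Pmel and Mc1r cannot be assigned to one strand. The last 121 bases of Pmel (chr10:128720118-128720238) held 59.5% of its pooled input reads in UV and 49.7% in Control, and they overlap Dgka, a diacylglycerol kinase gene on the opposite strand whose annotation starts at 128720141. The Mc1r peak (chr8:123408478-123408747) overlaps Gm38092 on the opposite strand. Among 281 pairs of peaks on opposite strands that overlapped by at least 90%, 276 had totals within 10% of each other. In input libraries the 121 bases of Pmel held 557, 770 and 1030 reads in UV samples and 776, 405 and 881 in Control samples. The overlapping Dgka peak chr10:128720141-128720440 held 645, 862 and 1152 reads in UV samples and 891, 445 and 988 in Control samples. The Pmel and Mc1r values here therefore include any reads of those neighbours. How much of the Pmel level and ratio comes from Dgka was not tested.

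With the reads inside the exonic peaks removed, a step chosen after the data were seen, the ratio of IP to input turned below 0 for 5 of the 7 genes with peaks. Peaks are stretches picked for a high ratio. Their removal lowers the ratio by construction where they hold a larger share of IP reads than of input reads. Dct was called lower, at −1.18 (SE 0.17, adjusted p = 8.17e-05 by edgeR) in UV and −1.29 (SE 0.17, adjusted p = 3.84e-05) in Control, and so was Pmel, at −0.56 in UV (adjusted p = 0.0177) and −0.48 in Control (adjusted p = 0.0354). Sox10 was not lowered, at 0.92 (SE 0.24) in UV and 0.75 (SE 0.24) in Control, against 0.88 and 0.68 with all reads. Its exonic peaks held on average 52.0% of input and 50.6% of IP reads in UV, and 54.9% and 50.7% in Control. Mc1r also stayed above 0, at 0.48 (SE 0.27) in UV and 0.85 (SE 0.26) in Control, but its call in UV was lost (adjusted p = 0.155). The UV over Control input change outside the peaks was −0.46 for Pmel (adjusted p = 0.106), −0.50 for Tyrp1 (adjusted p = 0.205) and −0.48 for Mitf (adjusted p = 0.129), none of them called.

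The wider pigment system, from lists chosen with these results known, gave few calls in input libraries, where 5.83% of all genes were called. Of 30 tested genes of melanosome biogenesis and transport, none was called (median log2 change 0.02). Gpnmb, a melanosome and macrophage glycoprotein, had 36.5 ± 11.6 CPM in UV skin and 68.4 ± 9.71 CPM in Control skin (log2 change −0.91, SE 0.23, adjusted p = 0.0536), and 4 of 13 alternatives called it. Slc7a11, the cystine transporter that affects pheomelanin, was at 0.76 (adjusted p = 0.0818), and 3 of 13 alternatives called it. Of 26 tested genes of melanocyte development and signalling, 1 rose and 1 fell (median −0.18 against −0.02 over all genes), a share near that of all genes. Edn3, which encodes endothelin 3, a growth factor for melanocyte precursors, fell to 0.78 ± 0.27 CPM in UV skin, against 2.31 ± 0.19 CPM in Control skin (log2 change −1.55, SE 0.26, adjusted p = 0.0163). The Edn3 call was lost without UV replicate 1, UV replicate 2 or Control replicate 1 (adjusted p = 0.0596 to 0.0715). Tfap2a, a transcription factor active in keratinocytes and neural crest, rose to 136.0 ± 4.42 CPM in UV skin, against 106.1 ± 1.69 CPM in Control skin (0.35, SE 0.07, adjusted p = 0.0302). The Tfap2a call was lost in 6 of 13 alternatives, among them library size only (adjusted p = 0.147). Kit (−0.06), Kitl (0.17) and the agouti gene, listed as a (−0.70, adjusted p = 0.0834), were not called, although Kitl was without Control replicate 2 (0.40, adjusted p = 0.0468), and Pomc was too low to test. Of 11 other melanocyte-enriched genes 1 rose, Mcam, an adhesion molecule also found on vessels (1.01, SE 0.13, adjusted p = 0.00619), and Trpm1, a melanocyte ion channel, was at −0.81 (adjusted p = 0.0786) and was called with DESeq2 (adjusted p = 0.00709) and with no low-count filter (adjusted p = 0.0189).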

How the data were processed

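The authors deposited raw read counts per gene and per peak for 12 libraries of mouse skin, with a log2 fold change, p-value and FDR per peak computed by the authors, per the file headers. STAR 2.5.3a and the GRCm38 build come from the submitters' processing notes. How reads were counted, peaks called, and strand and duplicates handled is not given in the sources used here. Even numbers made up 79.5% to 83.6% of counts from 1 to 20, so mates of a pair may have been counted separately. Peak starts were raised by 1 for printing.

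Counts were TMM-normalised, filtered with filterByExpr and tested over all genes or peaks with edgeR 4.0.16 (quasi-likelihood F test, R 4.3.3), with Benjamini-Hochberg adjustment and calls below 0.05. DESeq2 1.42.0 was an alternative. In simulated expression data over 24099 genes, 65.6% of genes changed 2-fold and 93.7% of those changed 4-fold were recovered. For the change of IP over input between conditions, simulated over 25022 genes, the shares were lower, at 34.3% and 78.8%. For the share in peaks, genes had at least 200 input reads and longest non-overlapping peaks within one exon were summed. Departures from group means correlated at 0.186 to 0.398 for IP and input with one sample number and at −0.353 to −0.082 otherwise; the number therefore marks IP and input of one sample. UV and Control numbers did not pair samples. The naming rule took all 10 genes in every comparison and up to 4 members of smallest p from each other list; lists of other cell types are given mostly as counts and summed levels. The members and lists were chosen with earlier results of these data known.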

Additional observations from a re-analysis of the deposited data

How the results depend on the processing

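No pigment gene was called between UV and Control in expression, IP abundance or enrichment change under any alternative run. Counts over all genes moved. For expression, 1404 calls became 2152 with no low-count filter, 2601 with DESeq2, 713 with the replicate block and 2143 with all 12 libraries, and 219 (without UV replicate 1) to 2100 (without Control replicate 3) leaving out one sample. For IP abundance, 570 became 1426, 1372, 247 and 1028 under those settings, and 67 to 1248 leaving out one sample. Within input or IP libraries alone, the replicate block can only join UV and Control samples of the same number. Those numbers did not pair samples, so the counts of 713 and 247 rest on an arbitrary grouping. They differ in this from the block that takes IP and input of a sample together. For enrichment change, 3 became 5 with library size only, 22 with no filter, 50 with DESeq2, 399 with the replicate block, and 0 to 7 leaving out one sample. For peaks, 0 became 404 with the replicate block, 30 over the peaks with the authors' FDR below 0.05, 45 in the authors' deposited table, and 0 to 6 leaving out one sample. With the replicate block, 9 of the 10 genes were called for IP over input in each condition.

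Some directions turned, and the cause was not tested. Leaving out one sample gave expression changes of −0.23 to 0.062 for Dct, −0.099 to 0.14 for Sox10 and −0.21 to 0.17 for Kit, and IP abundance changes of −0.25 to 0.055 for Dct, −0.42 to 0.032 for Tyr and −0.31 to 0.076 for Tyrp1. It gave −0.15 to 0.25 for Mlana IP over input in UV, and enrichment changes of −0.064 to 0.0032 for Dct, −0.015 to 0.090 for Pmel, −0.15 to 0.39 for Slc45a2 and −0.042 to 0.057 for Tyr. Among peaks it gave −0.074 to 0.00022 for Dct, −0.069 to 0.49 and −0.12 to 0.42 for both Pmel peaks at one start, and −0.16 to 0.19 for Tyrp1. Library size only turned Sox10 expression (−0.092), Mlana IP over input in UV (−0.10), Dct enrichment change (0.083), and the Tyrp1 (0.047) and Dct (0.076) peaks. The replicate block turned the Tyrp1 peak (0.011). Tyr enrichment change was −7.9e-06 with DESeq2 size factors and −0.0017 with counts divided by 2. Outside peaks, by construction, IP over input turned for Tyr (−0.31 in UV and −0.62 in Control), Tyrp1 (−0.17 in UV and −0.46 in Control), Dct (−1.18 in UV and −1.29 in Control), Pmel (−0.56 in UV and −0.48 in Control) and Mitf (−0.41 in UV and −0.36 in Control), and enrichment change was 0.11 for Dct and −0.084 for Pmel.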
